A study of Mus musculus with 9 samples.

Results

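Border macrophages are the resident macrophages of the meninges, the perivascular spaces and the choroid plexus. They clear debris and macromolecules at the edges of the brain and are a population apart from microglia, the macrophages of the neural tissue itself. Genes for scavenger and lectin receptors that microglia express little or not at all are commonly used to mark them, among them those for the mannose receptor Mrc1, the hyaluronan receptor Lyve1 and the haemoglobin scavenger Cd163. The account below covers 10 marker genes of border macrophages, not all of them for such receptors, of 19147 genes tested. They are Mrc1, F13a1, Lyve1, Cd163, Pf4, Ms4a7, Stab1, Clec4a1, Clec10a and Folr2. All 10 were measured, by 11 probe sets that carry only the symbol of the gene. For 9 members this was 1 probe set, and for F13a1 the one with the higher mean stood for the gene.

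Total RNA of whole cerebella at postnatal day 5 was measured on 9 arrays, 3 for each of SmoA2, Smo/Smo and wild type mice, all of strain C57BL/6. Per the design text, the mutant lines carry activated forms of Smoothened (Smo), the transducer of hedgehog signals at the cell membrane, under a Neurod2 promoter fragment restricted to granule neuron precursors. SmoA1 and SmoA2 are the lines named there, and the labels call the group that is not SmoA2 only Smo/Smo, so that group is read here as SmoA1, the line that remains. The labels give brain as the tissue and a separate code for each sample, read here as 1 mouse each, and p-values measure the spread between these samples. The codes of the Smo/Smo samples belong to another numbering than those of the SmoA2 and wild type samples, so source and genotype cannot be told apart there. In RNA of whole tissue, fewer border macrophages and less RNA of a gene per macrophage cannot be told apart.

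Array medians lay between 91 and 95.1 on the linear intensity scale. The highest log2 value of a Y-linked probe set in a female mouse, 5.57, served as the upper bound of background. Xist and Y-linked probe sets gave 1 female in SmoA2, 1 in Smo/Smo and 2 in wild type. The Smo probe set differed from wild type by -0.17 ± 0.11 (SE) in SmoA2 and by -0.03 ± 0.11 in Smo/Smo on the log2 scale (adjusted p = 0.545 and 0.962), and it is not known whether it detects the transgene. Gli1, a target gene of hedgehog signalling, rose by 0.50 ± 0.07 in SmoA2 (adjusted p = 0.00801) and gave 0.08 ± 0.07 in Smo/Smo (0.825). Zic1, a transcription factor of granule neurons, was high on all arrays, at a mean of 13.2 log2 in each group. It was the brightest granule lineage gene read, and the lowest value among those genes was 5.865 for Gabra6 on SmoA2 replicate 2. Wild type replicate 3 stood apart in choroid plexus markers, of which 4 of 11 lay within the background there, and results are given below without it.

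Promoter windows are shown for 3 of the members called lower in SmoA2, with that of Folr2, which had no call, beside them. They are the 300 bases around the start of transcription from RefSeq (GRCm38.p6), written 5′ to 3′ on the strand of the gene. Capitals mark matches, on either strand, to GAGGAA, the core bound by Spi1 (a transcription factor that all macrophages need), or to TGCTGA, a half-site of Maf factors.
Mrc1, chr2:14229164-14229463, plus strand: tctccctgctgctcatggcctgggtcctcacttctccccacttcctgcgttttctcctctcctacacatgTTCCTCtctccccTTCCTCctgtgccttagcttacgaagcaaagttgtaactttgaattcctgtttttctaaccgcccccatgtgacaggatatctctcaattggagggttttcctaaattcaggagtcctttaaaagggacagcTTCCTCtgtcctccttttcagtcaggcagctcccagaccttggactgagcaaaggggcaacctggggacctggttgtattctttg
F13a1, upstream start, chr13:37050195-37050494, minus strand: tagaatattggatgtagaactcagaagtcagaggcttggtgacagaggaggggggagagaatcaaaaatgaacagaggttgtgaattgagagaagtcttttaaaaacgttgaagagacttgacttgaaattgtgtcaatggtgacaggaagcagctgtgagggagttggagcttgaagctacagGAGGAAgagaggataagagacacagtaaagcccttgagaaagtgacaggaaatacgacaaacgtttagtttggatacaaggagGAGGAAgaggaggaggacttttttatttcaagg
F13a1, downstream start, chr13:37049164-37049463, minus strand: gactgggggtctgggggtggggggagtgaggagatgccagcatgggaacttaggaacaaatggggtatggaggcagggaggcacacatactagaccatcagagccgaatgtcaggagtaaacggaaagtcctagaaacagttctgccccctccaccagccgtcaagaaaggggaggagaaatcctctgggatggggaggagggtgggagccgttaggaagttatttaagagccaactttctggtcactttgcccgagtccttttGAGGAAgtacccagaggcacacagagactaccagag
Clec4a1, chr6:122921598-122921897, plus strand: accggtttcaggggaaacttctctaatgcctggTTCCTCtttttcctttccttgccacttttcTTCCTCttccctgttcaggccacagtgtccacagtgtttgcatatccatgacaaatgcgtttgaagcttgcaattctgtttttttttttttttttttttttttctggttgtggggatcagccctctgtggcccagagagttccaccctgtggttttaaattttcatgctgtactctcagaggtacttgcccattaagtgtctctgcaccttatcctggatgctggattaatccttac
Folr2, upstream start, chr7:101857141-101857440, minus strand: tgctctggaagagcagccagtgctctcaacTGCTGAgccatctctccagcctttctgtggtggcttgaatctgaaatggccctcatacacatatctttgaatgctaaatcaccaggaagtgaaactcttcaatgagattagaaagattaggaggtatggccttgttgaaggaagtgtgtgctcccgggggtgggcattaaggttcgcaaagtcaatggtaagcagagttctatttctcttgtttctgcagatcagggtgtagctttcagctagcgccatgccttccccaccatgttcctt
The set of promoter windows used here covered 8 of the 10 members, with 11 windows in all, and held none for Lyve1 and Clec10a. GAGGAA was found in 7 of the 11 windows, against 28.3% of 32851 promoter windows of the same length. TGCTGA was found in 3, those of Stab1 and Folr2, against 19.5%, and TATAAA, the TATA box, in 0, against 13.6%. No match shared letters with another (0 cases). F13a1, Mrc1 and Clec4a1 each held GAGGAA, as did Pf4, Stab1 and the first listed start of Ms4a7, while Cd163 and Folr2 did not. A match describes the letters and is no evidence of binding.

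SmoA2 cerebella had less transcript of 4 of the 10 border macrophage markers than wild type, and none was higher. Lyve1 was at 53.3% of its wild type level, F13a1 at 59.7%, Mrc1 at 60.6% and Clec4a1 at 65.3%. Over all genes, 1.73% were called lower and 0.961% higher in this comparison, at a Benjamini-Hochberg adjusted p under 0.05 in limma. The groups did not overlap, with SmoA2 lower, in 7 members, as in 10.2% of all genes. The median log2 fold change was -0.29 over the 10 members and 0.01 over all genes. In Smo/Smo, 1 member was lower than in wild type and 0 were higher, against 0.157% and 0.214% of all genes, and the median of the members was -0.06. Before adjustment, 7 members in SmoA2 and 2 in Smo/Smo had p below 0.05 in limma, against 14.8% and 8.77% of all genes, the shares against which such counts for other lists are to be read. Both mutant lines were compared with the same wild type arrays.

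Lyve1 (chr7:110850607-110862953), the hyaluronan receptor of border macrophages and of lymphatic vessels, separated SmoA2 from both other groups. Positions of genes are those of RefSeq on GRCm38.p6. Its log2 intensity was 6.52, 6.55 and 6.49 in SmoA2, 7.36, 7.46 and 7.42 in Smo/Smo, and 7.46, 7.42 and 7.41 in wild type. All SmoA2 arrays lay below all others, and the Smo/Smo and wild type values overlapped. Lyve1 fell 1.88-fold in SmoA2 against wild type (-0.91 ± 0.05 on the log2 scale, where ± is the SE with 3 arrays in each group, adjusted p = 5.521e-05). The difference between Smo/Smo and wild type was -0.02 ± 0.05 (adjusted p = 0.96), with a 95% interval of -0.14 to 0.11.

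Mrc1 (chr2:14229414-14332023), the mannose receptor CD206 that takes up glycoproteins, had the same order of groups. It read 8.67, 8.46 and 8.52 log2 in SmoA2, 9.17, 9.17 and 9.22 in Smo/Smo, and 9.34, 9.20 and 9.27 in wild type. Every SmoA2 array was lower than every other array. Mrc1 fell 1.65-fold in SmoA2 against wild type (-0.72 ± 0.07 on the log2 scale, adjusted p = 0.000957). In Smo/Smo it differed from wild type by -0.09 ± 0.07 (adjusted p = 0.80).

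Stab1 (chr14:31139017-31168651) encodes stabilin-1, a scavenger receptor of macrophages and sinusoidal endothelium. Its values were 8.86, 8.95 and 8.95 log2 in SmoA2, 9.18, 9.16 and 9.11 in Smo/Smo, and 9.13, 9.26 and 9.17 in wild type. The SmoA2 arrays again lay below all others, by a smaller margin. The log2 fold change against wild type was -0.26 ± 0.06 (adjusted p = 0.0543), which missed the threshold. It passed in 4 of 22 alternative settings, and in Smo/Smo the difference was -0.04 ± 0.06 (adjusted p = 0.919).

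Cd163 (chr6:124304636-124330529), which takes up haemoglobin bound to haptoglobin, was spread over the Smo/Smo arrays and had no call. It stood at 6.88, 7.02 and 7.05 log2 in SmoA2, at 7.39, 7.21 and 7.05 in Smo/Smo, and at 7.32, 7.21 and 7.35 in wild type. SmoA2 lay below wild type on every array but met the lowest Smo/Smo array. The difference from wild type was -0.31 ± 0.09 in SmoA2 (adjusted p = 0.143) and -0.08 ± 0.09 in Smo/Smo (adjusted p = 0.885).

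Clec4a1 (chr6:122921848-122934619), a C-type lectin receptor of myeloid cells also called Dcir4, was the member that differed from wild type in both lines. It read 6.12, 5.97 and 6.12 log2 in SmoA2, 6.17, 6.01 and 6.17 in Smo/Smo, and 6.68, 6.71 and 6.65 in wild type. Both mutant groups lay wholly below wild type and overlapped each other. Their means of 6.07 log2 in SmoA2 and 6.12 in Smo/Smo were not far over the background bound of 5.57. Clec4a1 fell 1.53-fold in SmoA2 (-0.61 ± 0.07 on the log2 scale, adjusted p = 0.00232) and 1.48-fold in Smo/Smo (-0.56 ± 0.07, adjusted p = 0.0141). The difference between SmoA2 and Smo/Smo was -0.05 ± 0.07, with a 95% interval of -0.21 to 0.11 (adjusted p = 0.825). The Smo/Smo call was lost without wild type replicate 1 (adjusted p = 0.0643), wild type replicate 2 (0.0831), Smo/Smo replicate 2 (0.0557) or Smo/Smo replicate 3 (0.0529), at log2 fold changes of -0.59 to -0.51 over the 9 fits that left out 1 array. In 8.12% of all genes Smo/Smo lay wholly below wild type, and among the members these were Clec4a1 and F13a1.

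Clec10a (chr11:70166623-70170836), a lectin for galactose-type sugars found on macrophages and dendritic cells, had no call. Its values were 7.02, 7.14 and 7.10 log2 in SmoA2, 7.57, 7.35 and 7.29 in Smo/Smo, and 7.25, 7.35 and 7.28 in wild type. SmoA2 lay below both other groups on every array, and Smo/Smo overlapped wild type. The log2 fold change was -0.20 ± 0.08 in SmoA2 (adjusted p = 0.268) and 0.11 ± 0.08 in Smo/Smo (adjusted p = 0.771).

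F13a1 (chr13:36867178-37050244) encodes the A subunit of coagulation factor XIII, which macrophages make in quantity. It read 7.43, 7.75 and 7.75 log2 in SmoA2, 8.20, 7.95 and 8.16 in Smo/Smo, and 8.42, 8.34 and 8.41 in wild type. The 3 groups did not overlap, with SmoA2 lowest and Smo/Smo between. F13a1 fell 1.67-fold in SmoA2 against wild type (-0.74 ± 0.10 on the log2 scale, adjusted p = 0.00557). In Smo/Smo the log2 fold change was -0.29 ± 0.10 (adjusted p = 0.44). The other F13a1 probe set lay at 5.25 to 5.64 in SmoA2, 5.43 to 5.59 in Smo/Smo and 5.46 to 5.78 in wild type, about the background bound, and gave -0.14 ± 0.12 in SmoA2 (adjusted p = 0.666). With the mean of both probe sets, F13a1 was called at -0.44 (adjusted p = 0.0134). After removal of the third SmoA2 and the third wild type array together, it missed the threshold (-0.78, adjusted p = 0.0501).

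Pf4 (chr5:90772435-90773383), the chemokine CXCL4 of border macrophages and platelets, was low in every group and had no call. It lay at 5.78 to 5.93 log2 in SmoA2, 5.89 to 5.95 in Smo/Smo and 5.84 to 5.94 in wild type, just over the background bound. Its log2 fold change was -0.05 ± 0.06 in SmoA2 (adjusted p = 0.786), with a 95% interval of -0.18 to 0.09. Markers of platelets and megakaryocytes, the other main source of Pf4, had 0 of 6 measured members called in each line, and of these Gp1bb, a platelet adhesion receptor subunit, gave -0.16 ± 0.09 in SmoA2 (adjusted p = 0.461). Ppbp, also of that list, lay at 3.31 to 4.29 log2, within the background.

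Ms4a7 (chr19:11321039-11336146), a tetraspan membrane protein that marks border macrophages, was low and scattered. It lay at 5.69 to 6.06 log2 in SmoA2, 5.36 to 5.68 in Smo/Smo and 5.55 to 5.94 in wild type. The Smo/Smo mean of 5.55 was within the background. The log2 fold change was 0.11 ± 0.13 in SmoA2 (adjusted p = 0.756) and -0.23 ± 0.13 in Smo/Smo (adjusted p = 0.698).

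Folr2 (chr7:101839988-101857190), the folate receptor beta of tissue macrophages, had near-equal means in the 3 groups. It lay at 7.67 to 7.76 log2 in SmoA2, 7.65 to 7.69 in Smo/Smo and 7.66 to 7.67 in wild type, well over the background bound. The log2 fold change was 0.06 ± 0.05 in SmoA2, with a 95% interval of -0.06 to 0.18 (adjusted p = 0.645). In Smo/Smo it was 0.00 ± 0.05 (0.004, adjusted p = 0.991).

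**Figure D1:**
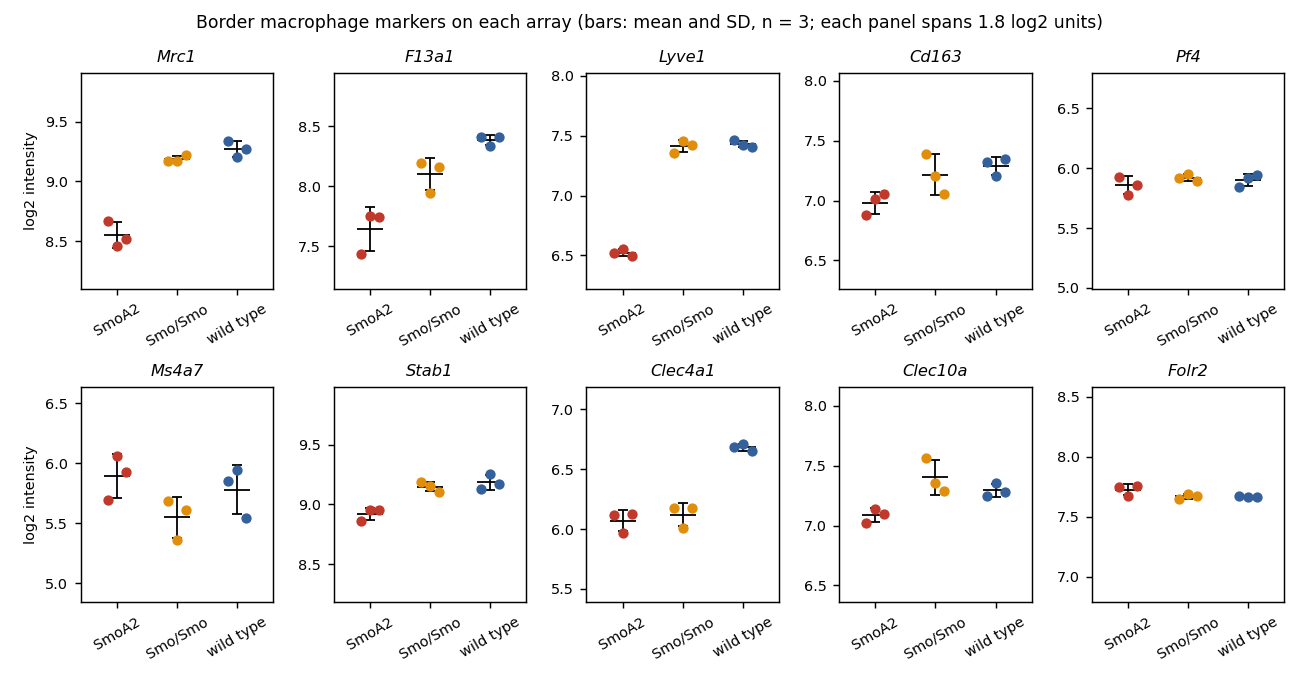
Log2 intensity of the 10 border macrophage markers on each array, with SmoA2, Smo/Smo and wild type from left to right; points are arrays, bars the mean and SD (n = 3), and every panel spans the same range. Lyve1, Mrc1 and F13a1 are lowest in SmoA2, Clec4a1 is low in both mutant groups, and Pf4 and Folr2 are level.

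The difference between the lines was tested directly, on the same model. Against Smo/Smo, SmoA2 was lower in 2 members and higher in 0, and 1.54% and 1.02% of all genes were called in these directions. Lyve1 was lower by 1.86-fold (-0.89 ± 0.05 on the log2 scale, adjusted p = 8.701e-05) and Mrc1 by 1.56-fold (-0.64 ± 0.07, adjusted p = 0.00215). F13a1 gave -0.46 ± 0.10 (adjusted p = 0.0509), Clec10a -0.31 ± 0.08 (0.0849) and Stab1 -0.23 ± 0.06 (0.093), none of them called. SmoA2 lay wholly below Smo/Smo in these 5 members, as in 10.1% of all genes. SmoA2 lay wholly above Smo/Smo in 1 of the 10 members, Ms4a7 (0.34 ± 0.13, adjusted p = 0.278), and in 8.12% of all genes. That count is near the share of all genes. The median log2 fold change of the 10 members was -0.23, and that of all genes 0.00 (-0.003). With genes under the background bound left out before the fit, 5 members were called, and with a pseudocount of 16 there were 4.

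**Figure D2:**
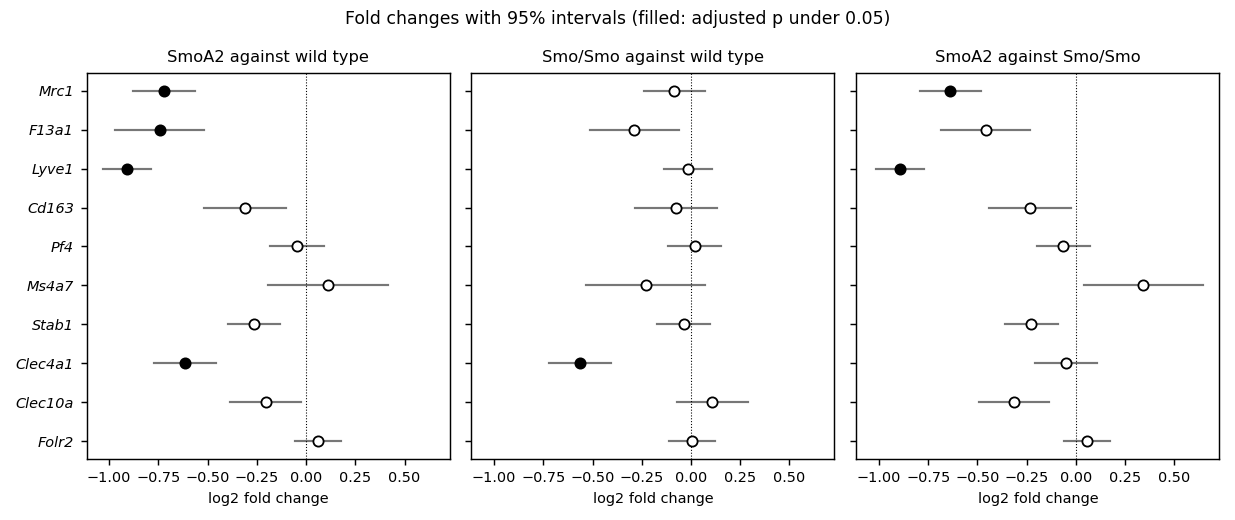
Log2 fold change of each border macrophage marker in the 3 comparisons, with its 95% interval from limma; filled points have an adjusted p under 0.05. Filled points lie at -0.91 to -0.61 in SmoA2 against wild type, and Clec4a1 is the filled point in Smo/Smo.

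Leaving out wild type replicate 3 kept the count in SmoA2 at 4 members, with Lyve1 at -0.92, F13a1 at -0.73, Mrc1 at -0.72 and Clec4a1 at -0.63 (adjusted p = 0.000657, 0.0268, 0.00611 and 0.0111). Choroid plexus markers summed to an intensity of 8790 to 10390 in SmoA2, 10550 to 12140 in Smo/Smo and 2051 to 6609 in wild type, the lowest being wild type replicate 3. Their defining gene Ttr averaged 11.8 log2 in SmoA2, 12.1 in Smo/Smo and 9.20 ± 3.68 (SD) in wild type. Of the 11 choroid plexus markers 0 were called in either line by limma, with 10 in SmoA2 and 9 in Smo/Smo at p below 0.05 before adjustment and medians of 1.43 and 1.73. Without wild type replicate 3, 6 were called in SmoA2 and 8 in Smo/Smo. The 4 calls of border macrophage markers were present both with and without the array that was lowest in choroid plexus markers. Wild type replicates 1 and 2, at sums of 6609 and 6320, also lay below every SmoA2 and Smo/Smo array. Leaving out wild type replicate 3 therefore does not remove the difference in choroid plexus markers, and its part in the 4 calls was not tested.

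Markers of meninges and fibroblasts, the tissue that many border macrophages live in, were lower in SmoA2 as well. Of 18 measured, 9 fell and 0 rose in SmoA2 against wild type, and the median log2 fold change was -0.45, against 0.01 over all genes. The summed intensity of the list was 16720 to 19110 in SmoA2, 21120 to 21680 in Smo/Smo and 21610 to 22520 in wild type. Aldh1a2, through which meninges make retinoic acid, gave -1.57 ± 0.15 (adjusted p = 0.00114). The transporter genes Slc22a6 and Slc6a13 gave -1.42 ± 0.12 and -1.05 ± 0.11 (adjusted p = 0.000437 and 0.00149). Of the collagen genes, Col1a1 (-0.49) and Col1a2 (-0.44) were called and Col3a1 (-0.20, adjusted p = 0.152) was not. Removal of 1 array brought the count to 3 (SmoA2 replicate 3, wild type replicate 2 or 3), 4 (SmoA2 replicate 1, wild type replicate 1), 5 (Smo/Smo replicate 2 or 3), 6 (Smo/Smo replicate 1) or 10 (SmoA2 replicate 2). In Smo/Smo 0 of the 18 were called against wild type by limma, 6 with p below 0.05 before adjustment, and the median was -0.06. How far the fall of the macrophage markers goes with that of meningeal tissue was not tested.

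No microglial gene was called lower in SmoA2. Of 12 measured, 0 were lower and 1 was higher than in wild type, with a median log2 fold change of 0.11. Crybb1, a crystallin gene of neonatal microglia, gave 0.55 ± 0.10 (adjusted p = 0.0269), a call that did not hold with sex as a covariate or when any 1 wild type or SmoA2 array, or Smo/Smo replicate 2, was removed. P2ry12, the purinergic receptor that marks microglia, stood at 0.46 (adjusted p = 0.0836), Tmem119 at -0.03 and Siglech at 0.09. Against Smo/Smo, 3 microglial genes were higher in SmoA2, with P2ry12 at 0.80 ± 0.12, Gpr34 at 0.59 ± 0.11 and Olfml3 at 0.28 ± 0.06 (adjusted p = 0.01, 0.0291 and 0.0434), and the median was 0.32. The count of 3 was 1 without SmoA2 replicate 1 or 3, Smo/Smo replicate 3 or wild type replicate 2, and 0 without Smo/Smo replicate 2. In Smo/Smo against wild type 0 were called by limma, 5 with p below 0.05 before adjustment, and the median was -0.17.

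Genes that border macrophages and microglia both express had no member called against wild type in either line. Of 17 measured, 13 lay above 0 in SmoA2, with a median of 0.10 and 3 at an unadjusted p under 0.05 in limma, and 17 lay below 0 in Smo/Smo, with a median of -0.21 and 4 at such a p. Csf1r, the receptor both cell types depend on, gave 0.06 (adjusted p = 0.788) in SmoA2 and -0.24 (0.381) in Smo/Smo. Spi1 gave 0.07 and -0.12, and Adgre1, the F4/80 antigen, -0.06 and -0.43. Fcgr3, an Fc receptor gene and the brightest of the list, gave 0.21 ± 0.10 (adjusted p = 0.339) and -0.08 ± 0.10 (0.886). Aif1 and Trem2 were higher in SmoA2 than in Smo/Smo, at 0.57 and 0.58 (adjusted p = 0.0251 and 0.0295). The count of 2 was 4 without SmoA2 replicate 2, 1 without SmoA2 replicate 1 or 3, Smo/Smo replicate 1 or wild type replicate 1, and 0 without Smo/Smo replicate 2 or 3.

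**Figure D3:**
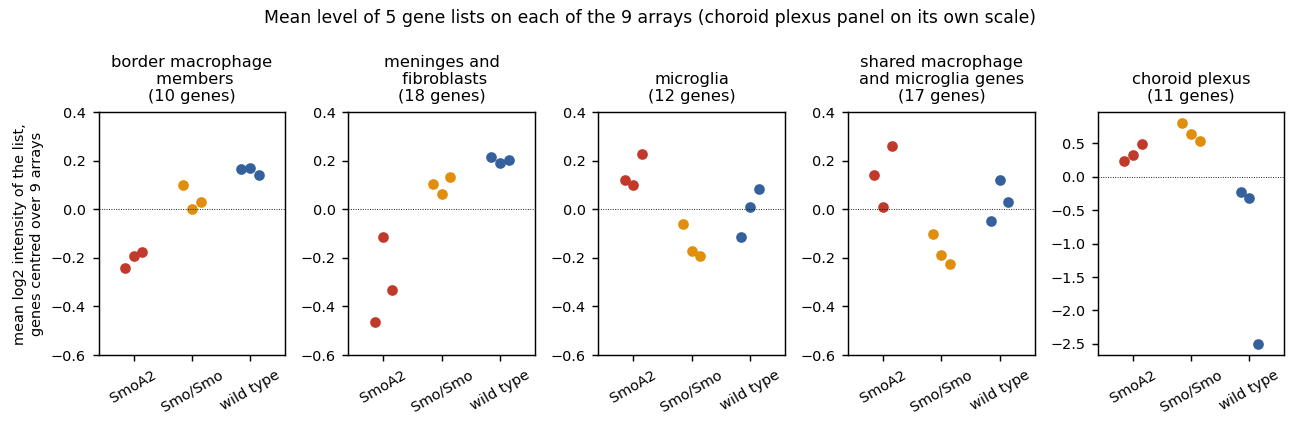
Mean log2 intensity of 5 gene lists on each array, each gene centred on its mean over the 9 arrays; points are arrays, with SmoA2, Smo/Smo and wild type from left to right. Border macrophage markers lie at -0.24 to -0.17 in SmoA2, 0.00 to 0.10 in Smo/Smo and 0.14 to 0.17 in wild type, and the choroid plexus panel, on its own scale, shows wild type replicate 3 at -2.50.

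A wider list of genes linked to border macrophages had calls in both directions. Of 23 measured, 2 were lower and 1 higher in SmoA2 against wild type, with a median of -0.01. Dab2, an endocytic adaptor also present in other cells, fell by 0.43 on the log2 scale (adjusted p = 0.00729). Maf, a transcription factor of tissue macrophages and of some neurons and vessels, fell by 0.33 (adjusted p = 0.02). Tgfbi, a secreted matrix protein induced by TGF-beta, rose by 0.85 ± 0.10 in SmoA2 and by 0.65 ± 0.10 in Smo/Smo (adjusted p = 0.00319 and 0.0393). Of the 9 fits without 1 array, 7 had no call of the list in Smo/Smo, those without any 1 SmoA2 or Smo/Smo array or wild type replicate 2. Fcna, the ficolin A gene, was lower in SmoA2 than in Smo/Smo at -0.84 ± 0.14 (adjusted p = 0.0161), with means of 6.01 log2 in SmoA2 and 6.85 in Smo/Smo. Against Smo/Smo 3 genes of the list were called in all, 1 without SmoA2 replicate 1 or Smo/Smo replicate 3, and 0 without Smo/Smo replicate 1 or 2. Cd209b, Cd209d and Marco, further receptors of the kind, had means within the background range and were not read singly. The means of Lyz2, Vsig4, Ccl8, Ms4a4a, Clec4n, Cd36 and Cbr2 over the 9 arrays lay within that range too, and that of Timd4 lay about at its upper bound. All of these are counted in the 23 and in the median, which thus rests in part on genes at background.

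Among macrophage growth factors and receptors, 1 of 9 was called in SmoA2. Csf1, a ligand of Csf1r made by several cell types, fell by 0.45 (log2 fold change -0.45 ± 0.06, adjusted p = 0.00509), with means of 7.78 log2 in SmoA2 and 8.23 in wild type. Il34, the other Csf1r ligand, gave -0.32 (adjusted p = 0.289) in SmoA2 and 0.02 in Smo/Smo. In Smo/Smo 0 of the 9 were called, with Csf1 at -0.23 (adjusted p = 0.238), and 2 had p below 0.05 before adjustment in limma. After removal of the third SmoA2 and the third wild type array together, 0 of the 9 were called in SmoA2.

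Lists for other cells that could carry some of the markers were also read. Of 15 genes of monocytes, dendritic cells and antigen presentation, Flt3, a receptor of dendritic cell precursors, was lower in SmoA2 (-0.39 ± 0.07, adjusted p = 0.0239), and the median was -0.11. This call of the list was lost without SmoA2 replicate 1 or any 1 wild type array. The means of Ccr2, H2-Aa, Xcr1, Napsa and Cd209a, counted in the 15, lay within the background range. Of 6 lymphatic endothelial genes 0 were called in either line, with Prox1, which neural cells also express, at 0.38 (adjusted p = 0.0906) in SmoA2. In SmoA2 2 of the 6 had p below 0.05 before adjustment in limma, with a median of 0.15, and in Smo/Smo 0, with 0.05. Reln, the brightest of the list, averaged 12.6 log2 in each group, and Flt4 lay at 5.34 to 5.86, about the background bound. How much of this list reads lymphatic cells in whole cerebellum was not tested. Of 16 endothelial and mural genes 2 fell in SmoA2, Tek by 0.29 and Kdr by 0.30, and the median was -0.03. The count of 2 was 1 without SmoA2 replicate 3 or Smo/Smo replicate 1, and 0 without any other single array. The summed intensity of that list was 7737 to 8005 in SmoA2, 9036 to 9454 in Smo/Smo and 8408 to 8739 in wild type. The part of these cells in the levels of Lyve1, Mrc1 and Stab1 was not tested.

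**Figure D4:**
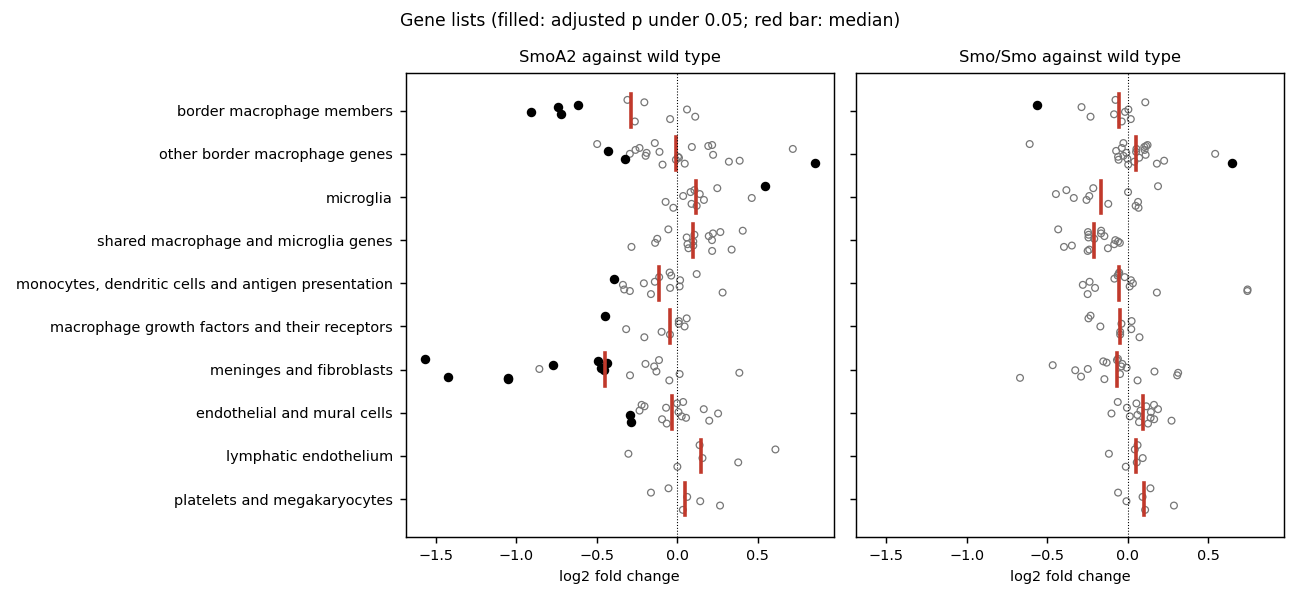
Log2 fold change of every measured gene of 10 lists in SmoA2 (left) and Smo/Smo (right) against wild type; filled points have an adjusted p under 0.05 and red bars are list medians. In SmoA2 the medians are -0.29 for border macrophage markers, -0.45 for meningeal markers and 0.11 for microglial genes.

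Genes beside the members on the chromosomes were read in the same fit. Within 200 kb of the 10 members lie 80 measured genes (GRCm38.p6), of which 1 was called in SmoA2 (lower, as were 1.73% of all genes) and 1 in Smo/Smo (lower, as were 0.157%). The first was Nt5dc2, whose span overlaps that of Stab1 at its end (-0.29, adjusted p = 0.0438). The second was Ctr9, near Lyve1 (-2.50 in Smo/Smo). Beside Clec4a1 on chromosome 6, the related lectin genes Clec4a3, Clec4a4, Clec4b1 and Clec4a2 gave -0.42, -0.10, 0.07 and 0.36 in SmoA2 and -0.36, -0.04, 0.14 and 0.39 in Smo/Smo, none called, with means within the background for all but Clec4a3. As probe sequences were not at hand, it is not known whether the Clec4a1 probe set also detects these relatives.

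The genes most like the members in pattern were sought among 12835 others with means above the background bound. By Pearson correlation over the 9 arrays with the mean of the 10 centred members, they were Serping1 (r = 0.987), Fgl2 (0.975), Neurog1 (0.973), Trp73 (0.972) and Micall2 (0.969), against a median r of 0.02 over all searched. The r mostly follows the order of the groups and is given as a description. Their log2 fold changes in SmoA2 against wild type were -0.37, -0.57, -0.68, -1.44 and -0.63. Serping1 encodes the C1 inhibitor, Fgl2 a fibrinogen-like protein of immune cells, Neurog1 a proneural transcription factor and Trp73 a p53 family member.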

How the data were processed

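Total RNA of 9 mouse cerebella was measured on 1 custom Affymetrix array each. The deposited values are probe set intensity on a linear scale, made by the authors with RMA per the submitters' processing notes, with no version given in the sources used here, and their log2 was taken. Platform annotation gave 24478 of 38385 probe sets a single symbol, 65 several and 13842 none. Each gene was represented by its brightest probe set (mean log2), giving 19147 genes. limma 3.58.1 (lmFit, eBayes) in R 4.3.3 fitted 1 mean per group over all 9 arrays without covariates. A call is an adjusted p under 0.05 by Benjamini-Hochberg, taken over all of them. The number of arrays, not a depth, limits the precision.

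Members, 17 other lists (198 of 229 entries measured) and the naming rule were all chosen with earlier results of these data known. Some genes are shared between lists, among them the members Cd163 and Folr2. The rule took all members, up to 3 called genes per list and comparison with the smallest p (where none was called, the gene with the highest mean), and the 5 genes most like the members. Other genes of the lists, and the genes near members, were named after their values were seen. Promoters and positions came from RefSeq GRCm38.p6. The fit was tested on simulated data. Alternatives were the probe set rule, a filter on low values, normalization, variance model, array weights, samples, thresholds, sex, a pseudocount and leaving out arrays. Figures used matplotlib 3.10.9 in Python 3.11.15.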

Additional observations from a re-analysis of the deposited data

Results flagged for a closer look

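For 2 border macrophage markers the effect against wild type differed between the mutant lines, by the direct test of SmoA2 against Smo/Smo in limma. The log2 difference was -0.637 for Mrc1 (adjusted p = 0.00215), with means of 8.55 in SmoA2 and 9.19 in Smo/Smo. It was -0.892 for Lyve1 (adjusted p = 8.701e-05), with means of 6.52 in SmoA2 and 7.41 in Smo/Smo. Both were called in each of the 22 alternative settings.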

How the results depend on the processing

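In 22 alternative settings the 10 members gave 660 results over the 3 comparisons. Of these, 642 stayed as in the main fit, called or not called, 8 lost a call and 10 gained one. The main fit called 4 members in SmoA2 and 1 in Smo/Smo against wild type, and 2 in SmoA2 against Smo/Smo. Most of the 642 were therefore results without a call in either fit. No value that was called in the main fit or in the alternative changed sign (0 cases), and 9 uncalled values near 0 did. In SmoA2 against wild type the count of members called was 3 to 5, and 4 in all 9 fits without 1 array. In Smo/Smo against wild type the count was 0 at an adjusted p under 0.01, with a fold of at least 1.5, and after removal of the third SmoA2 and the third wild type array together, and 0 to 1 in the fits without 1 array. In SmoA2 against Smo/Smo it was 5 with genes under the background bound left out, where fewer genes are tested, and 4 with a pseudocount of 16, where the cause was not tested. It was 2 in all 9 fits without 1 array. Counts for the other 17 lists stayed within 1.5 times in 899 of 1122 cases, which include counts of 0 that stayed 0. Counts above 0 in the main fit were less stable. They stayed within 1.5 times in 5 of 22 settings (chemokines and cytokines, SmoA2 against Smo/Smo) to 22 of 22 (granule lineage, SmoA2 against Smo/Smo). With sex as a covariate the counts of members called did not change. No paired analysis was possible because the sample codes give no number shared between groups. The background bound rests on few probe sets, and Pf4 and Ms4a7 lie close to it. Clec4a1 in both mutant groups lies little higher than Pf4.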

Other observations

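Genes for functions that border macrophages carry out were read beside the share of all genes, of which 1.73% were called lower and 0.961% higher in SmoA2, and 14.8% in SmoA2 and 8.77% in Smo/Smo had p below 0.05 before adjustment. Of 14 genes of haemoglobin and iron handling 0 were called in either line against wild type, with 4 and 1 at an unadjusted p under 0.05 in limma, and the medians were -0.06 in SmoA2 and 0.03 in Smo/Smo. The member Cd163 is among the 14, and in SmoA2 it is among the 4. The transferrin receptor gene Tfrc gave -0.10 ± 0.07 in SmoA2 (adjusted p = 0.552). Of 14 scavenger and lectin receptors 0 were called, with 5 and 3 at such a p, and the broad endocytic receptor gene Lrp1 gave -0.01 ± 0.06 in SmoA2 (adjusted p = 0.951). That list shares Cd36, Marco, Colec12, Clec4n and Timd4 with the wider list of border macrophage genes. Its members Stab2, Clec4a2, Clec4d, Clec4n, Cd36 and Marco had means within the background range, so its 0 rests in part on genes at background. Of 4 folate uptake genes, among them the member Folr2, 0 were called, with 1 and 1 at such a p. Folr1, the folate receptor of choroid plexus epithelium and the neighbour of Folr2, averaged 9.34 log2 in SmoA2, 9.59 in Smo/Smo and 7.58 ± 1.54 (SD) in wild type.

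Of 13 macrophage chemokines and cytokines 0 were called against wild type, with 4 at an unadjusted p under 0.05 in limma in SmoA2 and 3 in Smo/Smo. Several of them, among them Ccl8, Cxcl2, Il6, Il10 and Tnf, had means within the background range. Ccl9 gave -0.36 ± 0.15 in SmoA2 and -0.56 ± 0.15 in Smo/Smo (adjusted p = 0.322 and 0.273). Ccl4 was higher in SmoA2 than in Smo/Smo (0.32 ± 0.06, adjusted p = 0.0319), with means of 5.61 and 5.30 log2 at about the background bound. Of the 9 fits without 1 array, this list had 1 call without SmoA2 replicate 3, 2 without wild type replicate 2 and 0 in the other 7. Of 4 erythrocyte genes 0 were called, with 0 at such a p, and Alas2, the haem synthesis enzyme of red cell precursors, gave -0.33 ± 0.19 in SmoA2 (adjusted p = 0.465).

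Among markers of neurons, 3 of 6 Purkinje cell genes fell in SmoA2 against wild type, with Lhx5 at -0.66, Pcp2 at -0.61 and Rora at -0.45 (adjusted p = 0.0026, 0.0143 and 0.0116). The count of 3 was 1 without wild type replicate 1 or 2, and 5 without SmoA2 replicate 3. All 6 lay below 0 in SmoA2, as did 47.9% of all genes, with a median of -0.53. Before adjustment all 6 had p below 0.05 in limma, against 14.8% of all genes. Of 10 granule lineage genes 1 rose in SmoA2, Atoh1 by 0.82 ± 0.07 (adjusted p = 0.000703), with 4 at an unadjusted p under 0.05 in limma and a median of -0.09. In Smo/Smo 0 of either list were called, with 1 Purkinje and 2 granule lineage genes at such a p.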
